A study of Mus musculus with 14 samples.

Results

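The genes described here are 42 neighbours on proximal mouse chromosome 7, in the gene-dense block that also holds Apoe and Tgfb1. They were chosen by position, around Clptm1 and Rabac1, at a time when the differences between germ-free (GF) and specific-pathogen-free (SPF) microglia were known. The deposited table, which writes symbols in capitals (CLPTM1, RABAC1, TOMM40), held 39 of them under these symbols, among 14217 genes. It lists Sptbn4 under its older symbol Spnb4, so the symbols of the rule do not find it, and it is described apart. Gipr and Ltbp4 were not analysed here. Of the 39, 35 reached the minimum mean of 7.22 normalized counts and were tested, among 8822 genes in all. Dmpk, Apoc1, Bcl3 and Grik5 did not reach it. Because the contrast was known when the members were chosen, their GF and SPF values are given as a description, and no test is made over the list.

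The libraries came from microglia, the resident macrophages of the brain, of GF C57BL/6 mice and SPF C57BL/6 mice, all 6 to 8 weeks old and untreated, with 7 libraries per group. Microglia were sorted as CD11b-positive cells with low CD45, 1000 cells per brain, and their polyadenylated RNA was sequenced at the 3' end. The labels give no sex, cage or library batch, and do not say whether the mice of a group shared a cage or litter. Housing and any such factor that went with it cannot be told apart.

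Depth ranged from 680082 to 1190253 read equivalents in GF libraries and from 907568 to 1634679 in SPF libraries (exact permutation p = 0.0542, two-sided), and 25.1% ± 1.54 of genes were at 0 in GF libraries against 21.9% ± 1.59 in SPF libraries (SD, n = 7 each, exact permutation p = 0.00175). The labelled cell type was in view in every library: the 10 microglia markers summed to between 45666 and 52242 normalized counts in GF and between 41383 and 48130 in SPF. Lists of other cells were far lower, but some were only partly present. Of their markers the table held 3 of 6 for monocytes and granulocytes, 3 of 6 for lymphocytes and 4 of 6 for border macrophages. It held 4 of 6 for endothelial cells, 5 of 6 each for astrocytes and oligodendrocytes, 3 of 4 for erythroid cells and all 6 for neurons. Monocyte and granulocyte markers summed to at most 9.89 in GF and 11.5 in SPF, lymphocyte markers to at most 4.98 and 5.10, border macrophage markers to at most 21.8 and 40.2, neuronal markers to at most 54.7 and 51.6, endothelial markers to at most 71.3 and 89.4, with Cldn5 at 0 throughout, oligodendrocyte markers to at most 124 and 127, and astrocyte markers to at most 255 and 252. Few markers of these other cells were tested: 0 for monocytes and granulocytes, 0 for lymphocytes and at most 2 for each remaining list. None of those tested passed the threshold. Of the 10 microglia markers, all tested, 2 rose and 2 fell. Erythroid markers summed to 1839 in 1 GF library, GF 6, and to at most 61.3 in SPF libraries. The part of these lists in the results was not tested.

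Genes that lie side by side on a chromosome can share promoters, enhancers and an open chromatin domain, and blocks of housekeeping genes with CpG-rich promoters are common in gene-dense regions. The region is known to human geneticists for the cluster of TOMM40, APOE and APOC1, in which variants are linked to the risk of Alzheimer disease. The members do varied work, though some act in the same process. They include proteins of membrane traffic, the cytoskeleton, mitochondria, transcription, RNA processing, DNA repair and signalling, and they were chosen by position.

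In chromosome order the members form a first stretch, with Calm3 at one end and Bcl3 at the other, and a second, with Rabac1 and Capns1 at its ends. In the RefSeq gene table of GRCm38.p6 the stretches are separated by 246 genes, 86 of them protein-coding genes of vomeronasal type 1 receptors. Between the outermost members the deposited table held 201 genes, of which 114 were tested: the 35 members and 79 others.

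The promoters of 5 members are shown because 4 of them, Clptm1, Rabac1, Erf and Exosc5, belong to the genes whose GF libraries all lay above all SPF libraries, and because the remaining one, Bckdha, shares its promoter region with Exosc5. Each window runs from 250 bases before to 50 after the transcription start, 5′ to 3′ on the gene's own strand, from RefSeq on GRCm38.p6. Capitals mark the GC box GGGCGG, or its reverse complement CCGCCC, and the motif of the zinc finger protein ZNF143, searched as ACTACA, any 2 bases and TCCCA, on either strand. The windows are Clptm1 at chr7:19664981-19665280 (minus strand), Rabac1 at chr7:24972679-24972978 (minus), Erf at chr7:25250709-25251008 (minus), Bckdha at chr7:25658712-25659011 (minus) and Exosc5 at chr7:25658903-25659202 (plus).
Clptm1: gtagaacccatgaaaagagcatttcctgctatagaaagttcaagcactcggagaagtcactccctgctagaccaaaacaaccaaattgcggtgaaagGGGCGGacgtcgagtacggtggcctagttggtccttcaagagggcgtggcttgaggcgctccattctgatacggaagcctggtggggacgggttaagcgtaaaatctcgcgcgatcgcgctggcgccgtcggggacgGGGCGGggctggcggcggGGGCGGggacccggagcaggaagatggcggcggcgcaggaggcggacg
Rabac1: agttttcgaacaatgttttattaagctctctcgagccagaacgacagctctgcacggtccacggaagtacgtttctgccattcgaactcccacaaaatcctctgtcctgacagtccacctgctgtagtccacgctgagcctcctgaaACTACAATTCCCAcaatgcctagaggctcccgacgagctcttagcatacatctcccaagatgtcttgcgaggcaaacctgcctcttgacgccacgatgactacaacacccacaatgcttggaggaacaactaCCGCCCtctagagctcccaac
Erf: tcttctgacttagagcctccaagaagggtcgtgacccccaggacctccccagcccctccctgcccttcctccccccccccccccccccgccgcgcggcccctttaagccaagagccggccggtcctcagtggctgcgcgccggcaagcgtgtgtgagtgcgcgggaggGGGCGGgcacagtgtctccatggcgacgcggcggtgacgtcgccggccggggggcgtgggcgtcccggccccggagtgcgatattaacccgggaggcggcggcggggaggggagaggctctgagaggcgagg
Bckdha: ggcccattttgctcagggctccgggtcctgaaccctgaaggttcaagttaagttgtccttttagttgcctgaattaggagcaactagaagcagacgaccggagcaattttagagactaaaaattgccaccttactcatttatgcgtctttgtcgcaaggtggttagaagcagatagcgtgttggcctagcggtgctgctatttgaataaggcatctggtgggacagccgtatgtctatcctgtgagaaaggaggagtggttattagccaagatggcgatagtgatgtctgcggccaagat
Exosc5: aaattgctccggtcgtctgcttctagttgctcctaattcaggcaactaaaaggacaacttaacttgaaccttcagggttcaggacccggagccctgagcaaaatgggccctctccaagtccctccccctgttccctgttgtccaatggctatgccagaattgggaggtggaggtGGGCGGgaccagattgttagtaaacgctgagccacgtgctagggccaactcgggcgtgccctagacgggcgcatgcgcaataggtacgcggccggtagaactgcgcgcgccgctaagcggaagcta

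Among these 5 windows Clptm1 held 3 GC boxes, Rabac1, Erf and Exosc5 held 1 each, and Bckdha held 0. The ZNF143 motif was present in Rabac1 alone of the 5. Of 36 members with a promoter in the table, 29 (80.6%) held a GC box, against 35.7% of all 32851 promoters of the same length, and 4 (11.1%) held the ZNF143 motif, against 1.47%. The ETS core CCGGAAG, searched on both strands, was in 10 of the 36 (27.8%, against 8.86% of all promoters). The box CCAAT, on both strands, was in 11 (30.6%, against 37.4%), and TATAAA, on both strands, in 1 (2.78%, against 13.6%). The median member promoter had 59.5% GC and 19.5 CpG dinucleotides, against 52.7% and 7 for all promoters. The 32851 promoters outnumber the 8822 genes tested, so they were not limited to genes with values as high as those of the tested members. They were not matched to the members in GC or CpG content either. Whether any of these contrasts is particular to the block was not tested. A match of letters is a description of the window and not evidence of binding.

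GF microglia had higher values than SPF microglia for some genes of the block, scattered among neighbours that did not pass. Of the 35 members tested, 8 rose in GF and 1 fell, while 26 did not pass (limma, Benjamini-Hochberg adjusted p under 0.05 over all 8822 genes). Over all genes tested, 3.68% rose and 3.07% fell. The members that rose were Clptm1, Rabac1, Exosc5, Mark4, Snrpd2, Bckdha, Erf and Capns1, and the one that fell was Trappc6a. The median log2 difference of the members was 0.26, against -0.02 over all genes tested. Of the 35, 27 lay above 0 (77.1%), against 48.5% of all genes tested. The count of rises was 5 without GF 1, 5 without GF 6, 5 without GF 7 and 5 without SPF 7, and 3 without GF 1, GF 6 and SPF 2 together. In these fits, in the same order, 3.08%, 3.23%, 3.16%, 2.75% and 1.75% of all genes tested rose. GF 6 has the lowest depth of all libraries and SPF 2 the lowest of the SPF libraries. In 4 members, Clptm1, Rabac1, Erf and Exosc5, the lowest GF library exceeded the highest SPF library, and in 0 members the reverse held, where over all genes tested these shares were 1.28% and 0.895%. Since the members were chosen with this contrast known, nothing is read from these counts.

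**Figure D1:**
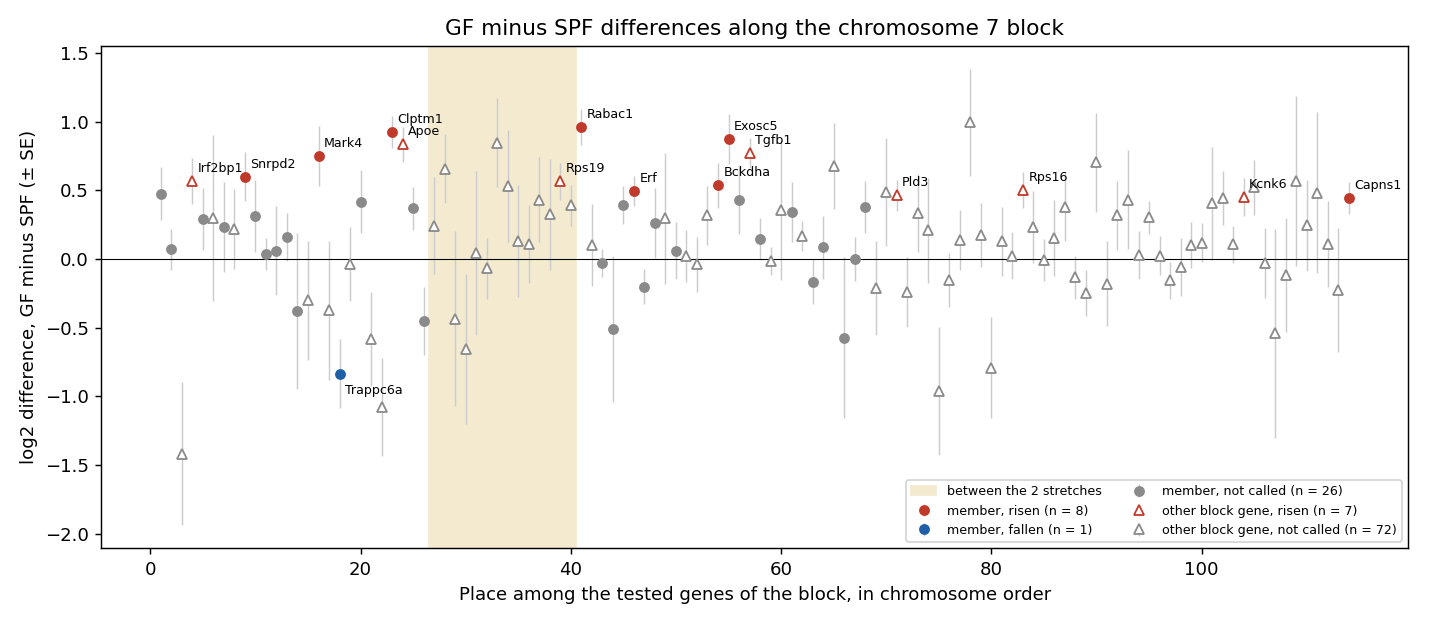
log2 difference, GF minus SPF, with its SE, for the 114 tested genes of the block in chromosome order (n = 7 libraries per group). Filled circles are members and open triangles the other genes, red for genes that rose and blue for the 1 that fell, and the shaded part lies between the 2 stretches. The 15 rises stand among genes on both sides of 0, and some genes that did not pass lie as far out, from Ccdc61 at -1.42 to Dyrk1b at 0.99.

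Membrane traffic held the largest rises among the members. Clptm1 encodes a multipass membrane protein that acts in folding and traffic of receptors. Its values in GF libraries were 565 at the lowest, 625 at the median and 747 at the highest, against 228, 350.1 and 407 normalized counts in SPF libraries. The groups did not overlap, and SPF 7 was the lowest library. Clptm1 averaged 631 ± 63.6 in GF and 336 ± 59.8 in SPF (SD, n = 7 each). The log2 difference came to 0.92 ± 0.12 (SE), or 1.90-fold.

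Rabac1 encodes the prenylated Rab acceptor, a membrane protein of the Golgi that binds Rab GTPases. Its GF libraries lay between 893 and 1153 normalized counts with a median of 1048, and its SPF libraries between 317 and 652 with a median of 592. The groups did not overlap here either, and SPF 7 was again lowest. The means were 1032 ± 98.2 in GF and 542 ± 126 in SPF (SD, n = 7 each). The log2 difference came to 0.96 ± 0.13 (SE), or 1.95-fold.

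The other members of membrane traffic and adhesion were not higher. Trappc6a, a subunit of the TRAPP tethering complexes, stood between 16.1 and 39.9 in GF libraries with a median of 23.9, and between 32.5 and 55.4 in SPF libraries with a median of 38.9. Its groups overlapped, and its log2 difference was -0.84 ± 0.25 (SE), the only fall among the members tested. That call was lost without any of GF 1, 2, 3, 4 and 5 and SPF 2, 3, 5 and 6, with differences between -0.86 and -0.76. Pvrl2, now Nectin2, an adhesion molecule, had a log2 difference of -0.45 ± 0.25 (SE) and did not pass.

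**Figure D2:**
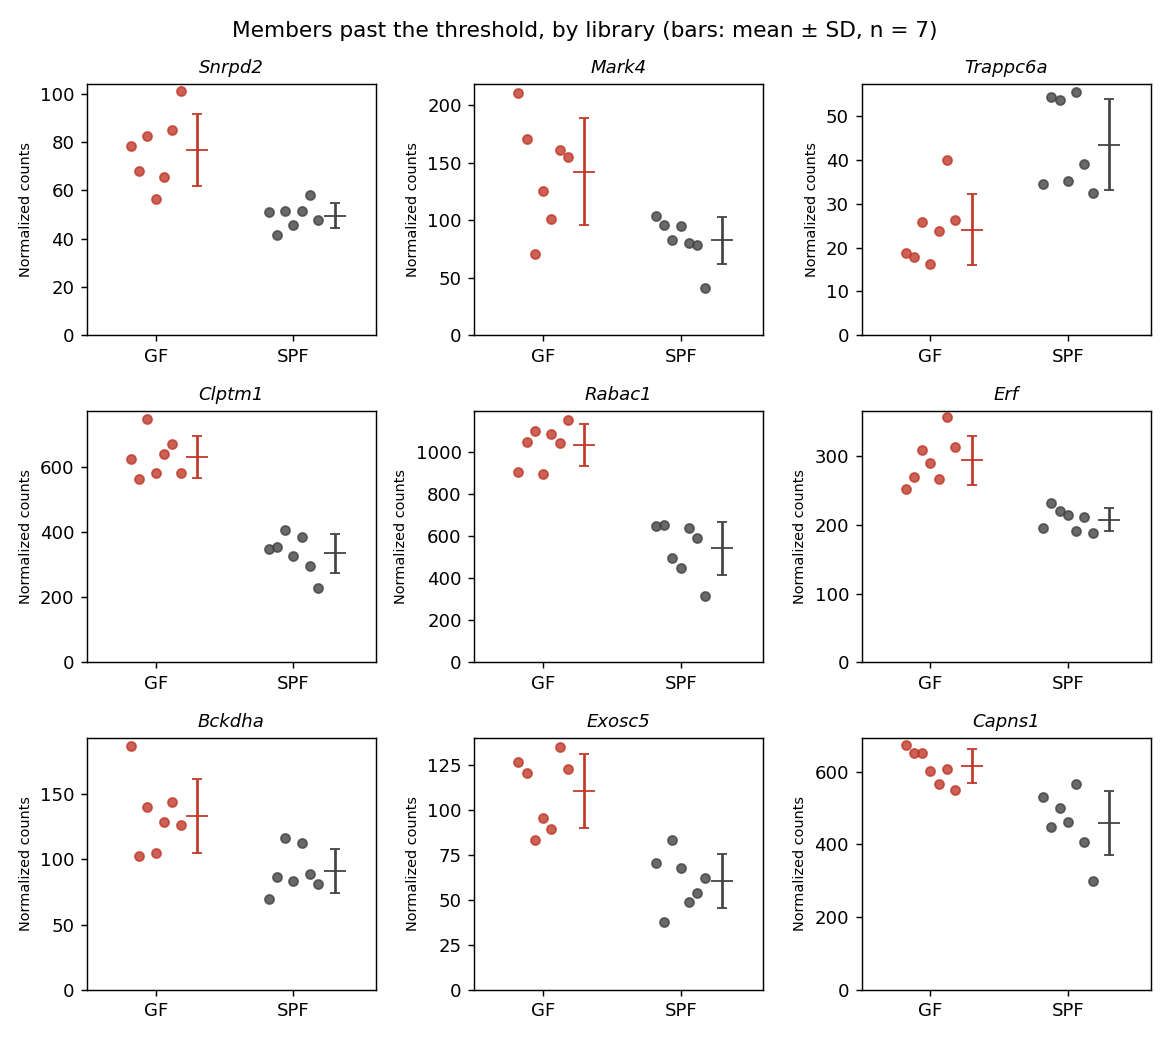
Normalized counts per library of the 9 members past the threshold, GF libraries left of SPF libraries in each panel, with the mean ± SD (n = 7) beside the points. Clptm1, Rabac1, Erf and Exosc5 show no overlap between groups, and Trappc6a is the only one of the 9 that is lower in GF.

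Among members that act on the cytoskeleton, Mark4 rose. It encodes a kinase of microtubule-associated proteins. Mark4 ranged from 70.7 to 210.3 normalized counts in GF libraries (median 155) and from 41.0 to 103 in SPF libraries (median 83.3), so the groups overlapped. Its log2 difference was 0.75 ± 0.22 (SE), and the call was lost without any of GF 1, 2, 6 and 7 and SPF 5, 6 and 7 (differences 0.59 to 0.75). Vasp, which promotes elongation of actin filaments, had nearly equal values, 278 ± 36.9 in GF and 272 ± 36.6 in SPF (SD, n = 7 each), which differ by 0.03 ± 0.12 (SE) on the log2 scale. B9d2, of the ciliary transition zone, stood at 0.43 ± 0.25 (SE) and did not pass. Sptbn4, beta-IV spectrin of the membrane skeleton, listed as Spnb4, was under the minimum, with a median of 6.05 normalized counts in GF libraries (4.94 to 9.46) and 2.37 in SPF libraries (0 to 10.9).

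Members of mitochondria and metabolism all had differences above 0, and 1 of 6 tested rose. Over all genes tested 48.5% lay above 0 and 3.68% rose. This group and those that follow are too small to set a share against these. Bckdha, a subunit of the mitochondrial branched-chain ketoacid dehydrogenase, lay between 103 and 187 in GF libraries (median 128) and between 69.8 and 116 in SPF libraries (median 86.3). The groups overlapped, and the log2 difference was 0.53 ± 0.16 (SE). Its call was lost without any of GF 1, 3, 5, 6 and 7 and SPF 1, 2, 4, 6 and 7 (differences 0.45 to 0.54). Tomm40, the channel of the outer membrane translocase of mitochondria, averaged 190.1 ± 46.6 in GF and 144 ± 21.1 in SPF (SD, n = 7 each) and did not pass, at 0.37 ± 0.16 (SE). Blvrb, biliverdin reductase B, stood at 0.38, Opa3, a mitochondrial membrane protein, at 0.31, Pafah1b3, a subunit of a platelet-activating factor acetylhydrolase, at 0.26 and Lipe, hormone-sensitive lipase, at 0.06.

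Apoc1, which encodes apolipoprotein C-I and lies beside Apoe, was too low to be tested. It was listed above 0 in 6 of 7 GF libraries, at up to 11.6 normalized counts with a median of 4.98, and at 0 in all 7 SPF libraries. One step of the deposited values, the least a whole read can add, is between 0.989 and 1.74 normalized counts in GF libraries and between 0.675 and 1.18 in SPF libraries. In these steps the GF libraries of Apoc1 held between 0 and 11, with a median of 4. With no filter on low values Apoc1 rose, at a fitted log2 difference of 1.71 ± 0.42 (SE), which depends on the pseudocount because SPF libraries are at 0.

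Of the regulators of transcription 1 of 5 tested rose, and 3 of 5 lay below 0. Erf, an ETS-domain repressor that acts downstream of ERK, lay between 253 and 358 normalized counts in GF libraries (median 290) and between 188 and 232 in SPF libraries (median 211). The groups did not overlap, and the log2 difference was 0.49 ± 0.11 (SE). Pou2f2, the transcription factor Oct-2, was at 656 ± 96.6 in GF and 666 ± 66.7 in SPF (SD, n = 7 each), a difference of -0.03 ± 0.11 (SE). Cic, the repressor capicua, stood at -0.20 ± 0.13 (SE), Cd3eap, a subunit of RNA polymerase I, at 0.16 and Ppp1r13l, the p53 inhibitor iASPP, at -0.38, and these did not pass. Bcl3, a coregulator of NF-kB, was under the minimum, with a median of 8.41 in GF libraries and 4.73 in SPF libraries.

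In RNA processing, 2 of 5 tested members rose. Exosc5 encodes a subunit of the RNA exosome, which degrades and trims RNA. Its GF libraries lay between 83.7 and 135 (median 121) and its SPF libraries between 37.8 and 83.3 (median 62.2). All GF libraries stood above all SPF libraries, by a margin of less than 1 normalized count between the nearest pair, and the log2 difference was 0.87 ± 0.18 (SE), or 1.83-fold. Snrpd2, a core protein of the spliceosomal snRNPs, ranged from 56.4 to 101 in GF libraries (median 78.4) and from 41.6 to 57.9 in SPF libraries (median 51.0), with a log2 difference of 0.60 ± 0.18 (SE). The call of Snrpd2 was lost without any of GF 1, 3, 6 and 7 and SPF 2, 4, 5 and 7 (differences 0.53 to 0.61). Values of Snrpd2 were not whole steps in some libraries, such as GF 1 at 78.38 with a step of 1.04. Its counts are therefore less certain, for a reason that was not tested. Gemin7, of the SMN complex, stood at 0.42, Sympk, the scaffold symplekin of 3' end processing, at 0.29 and Snrpa, of the U1 snRNP, at -0.16, none past the threshold.

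Of the members in DNA repair, cell death and protein turnover 1 of 5 tested rose. Capns1, the small regulatory subunit shared by the calpain proteases, lay between 551 and 675 in GF libraries (median 608) and between 299.6 and 567 in SPF libraries (median 463). The groups overlapped in the range of the highest SPF library, and the log2 difference was 0.44 ± 0.12 (SE). Egln2, the prolyl hydroxylase PHD1, stood at 0.34 and Fbxo46, an F-box protein, at 0.23. Ercc1, part of a DNA repair endonuclease, stood at 0.06, and Dedd2, a death effector domain protein, at -0.51 ± 0.53 (SE). Another protein-coding gene overlaps 6 members in the gene annotation: Ercc1 and Cd3eap overlap each other, Dedd2 overlaps Zfp526, Itpkc and Snrpa overlap BC024978, and Grik5 overlaps Zfp574. These overlaps are of whole gene spans, introns included, and exons and strands were not compared. With strand use not stated, reads from a shared part may not be assignable to one gene or the other.

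None of the 6 kinases, phosphatases and other signalling members tested passed. Gsk3a, glycogen synthase kinase 3 alpha, averaged 352 ± 41.3 in GF and 274 ± 68.6 in SPF (SD, n = 7 each), a difference of 0.39 ± 0.14 (SE), and passed only without SPF 2. Calm3, a calmodulin gene, stood at 0.48 ± 0.19 (SE). Ppp5c, protein phosphatase 5, was at 0.07, Itpkc, which phosphorylates inositol trisphosphate, at 0.08, Shkbp1, an adaptor-binding protein, at 0.00 and Numbl, a Numb-like adaptor, at -0.57 ± 0.59 (SE). Ccdc97, a coiled-coil protein, stood at 0.14. Dmpk was listed at 0 in all GF libraries and in 6 SPF libraries, with 4.25 in SPF 3, and Grik5 was listed at 0 in 5 GF and 3 SPF libraries.

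**Figure D3:**
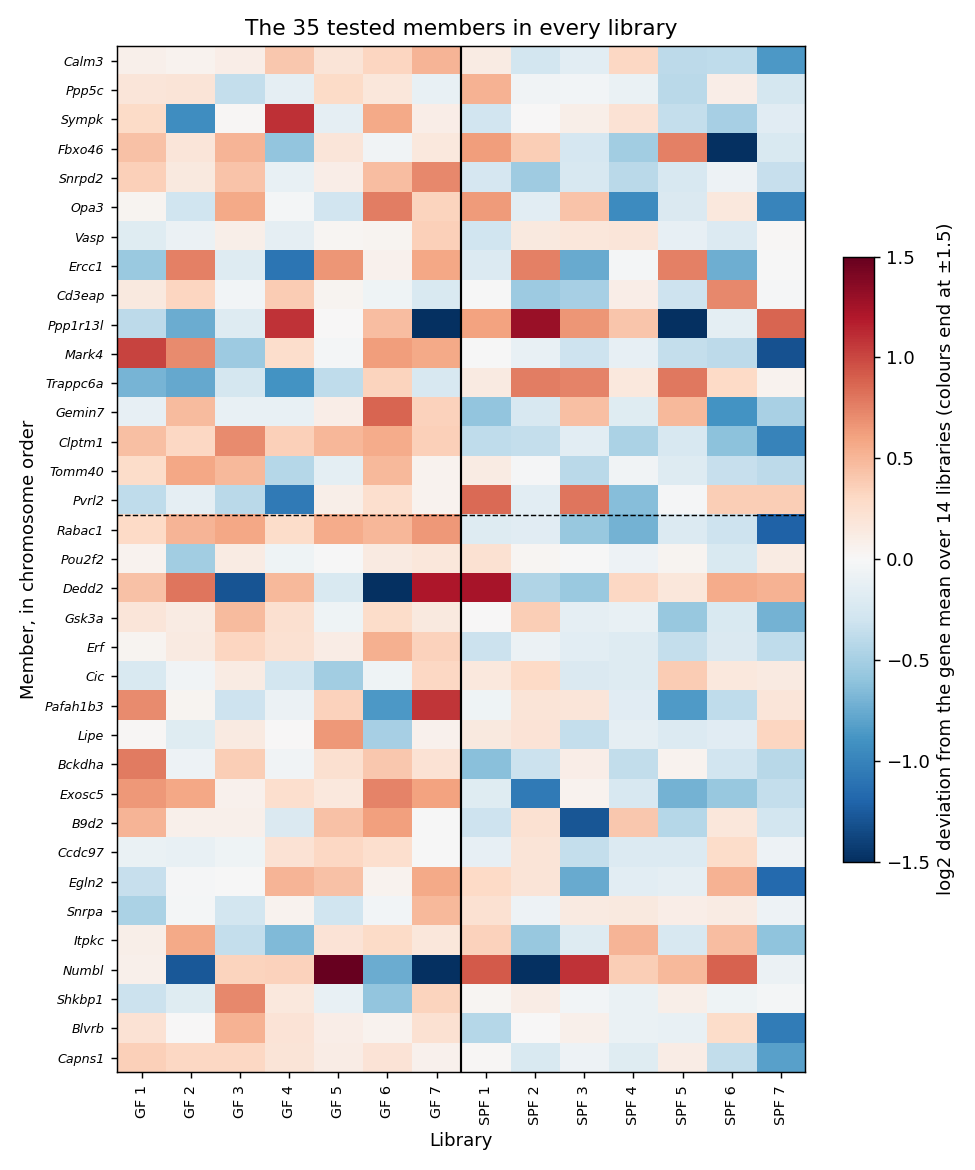
log2 deviation of each tested member from its own mean over the 14 libraries, with GF libraries left of SPF libraries and members in chromosome order; the dashed line separates the stretches. The red and blue sides of Clptm1, Rabac1 and Erf split at the border between groups, most other rows do not, and SPF 7 holds the lowest SPF value of 12 of the 35 members. Colours end at ±1.5.

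Apoe and Tgfb1 led the rises outside the members. Of the 79 other genes of the block that were tested, 7 rose and 0 fell (limma as above), or 8.86%, and their median log2 difference was 0.14. At an unadjusted p under 0.05 there were 19 (24.1%), close to the 21.9% of all genes tested. An exact permutation test per gene, adjusted in the same way, called 4 higher and 0 lower among them, where it called 2.20% of all genes higher and 1.76% lower. Apoe, apolipoprotein E, averaged 2479 ± 551 in GF and 1377 ± 239 in SPF (SD, n = 7 each), a difference of 0.83 ± 0.13 (SE, limma adjusted p = 0.000246). Tgfb1, transforming growth factor beta 1, averaged 1166 ± 87.4 in GF and 693 ± 130 in SPF (SD, n = 7 each), a difference of 0.77 ± 0.11 (SE, limma adjusted p = 8.93e-05), and its groups did not overlap. Rps19 and Rps16, of the small ribosomal subunit, rose by 0.56 and 0.50 (limma adjusted p = 0.00964 and 0.0203), and both belong to a family with many pseudogene copies, so their counts are uncertain. With length and GC trends removed, as described further on, Rps19 was at 0.33 (limma adjusted p = 0.119) and no longer passed. Pld3, an endolysosomal nuclease, rose by 0.46 ± 0.11 (SE, limma adjusted p = 0.0122), and did not pass with those trends removed (0.36, limma adjusted p = 0.0580).

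The remaining 2 rises were near the threshold. Irf2bp1, a corepressor that binds IRF2, lay between 98.5 and 153 in GF libraries and between 50.2 and 104 in SPF libraries, with a log2 difference of 0.57 ± 0.17 (SE, limma adjusted p = 0.0386). That call was lost without any of GF 2, 3, 6 and 7 and SPF 2, 3, 5, 6 and 7 (limma adjusted p 0.0543 to 0.0931, differences 0.46 to 0.58). Kcnk6, a two-pore potassium channel, lay between 239 and 475 in GF libraries and between 202 and 279 in SPF libraries, with a difference of 0.45 ± 0.14 (SE, limma adjusted p = 0.0489). Its call was lost without any of GF 3, 5, 6 and 7 and SPF 1, 2, 3, 4, 6 and 7 (limma adjusted p 0.0601 to 0.115, differences 0.35 to 0.46). The call of Rps16 was lost without SPF 7 (limma adjusted p = 0.0518, difference 0.42). With length and GC trends removed, Kcnk6 was at 0.51 (limma adjusted p = 0.0277) and Rps16 at 0.45 (limma adjusted p = 0.0327), and both passed. Apoe, at 0.64, and Tgfb1, at 0.61, passed there too, and Irf2bp1 did not (0.42, limma adjusted p = 0.143).

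The rises were spread over both stretches. In the first stretch 3 of 16 tested members rose and 1 fell, with a median log2 difference of 0.26, and in the second 5 of 19 rose and 0 fell, with a median of 0.26. Over all tested genes, members or not, 5 of 26 rose in the first stretch (median 0.19) and 9 of 74 in the second (median 0.15). The figures that follow also count all tested genes. Between the stretches 1 of 14 tested genes rose, with a median of 0.28. On chromosome 7 before the block 6 of 72 genes rose and 1 fell (median 0.15), and after it 21 of 505 rose and 14 fell (median 0.05). On the other chromosomes 283 of 8131 rose, or 3.48%, and 255 fell, with a median of -0.03.

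Few risen genes stood next to each other. Of the 113 pairs of neighbouring tested genes in the block, 2 had both genes risen, Clptm1 with Apoe and Bckdha with Exosc5, or 1.77% of pairs, against 0.463% of 8638 pairs elsewhere. Across the pairs of the block, the log2 differences of neighbours had a Pearson correlation of 0.06, and across the pairs elsewhere one of 0.07. Neighbours had the same sign in 67 of the 113 pairs (59.3%), and in 4587 of the 8638 pairs elsewhere (53.1%). These are values across genes measured in the same libraries, and genes are not independent replicates. Pair shares also depend on how many genes rose or lay above 0. In the block 13.2% of the 114 tested genes rose and 70.2% lay above 0, against 3.68% and 48.5% of all genes tested. More sharing between neighbours in the block is therefore not read from the pair shares. The 15 risen genes had 23 tested neighbours that did not pass, 16 of them above 0 and 7 below, with a median of 0.22 and a range from -1.42 to 0.52. For example, Clptm1 stood beside Relb, an NF-kB subunit, at -1.08 on its other side, and Mark4 stood between Ercc2 at -0.30 and Bloc1s3 at -0.38. Rabac1 stood between Arhgef1 at 0.39 and Zfp574 at 0.10. Erf stood between Gsk3a at 0.39 and Cic at -0.20, and Snrpd2 between Qpctl at 0.22 and Opa3 at 0.31. None of these neighbours passed, and they were chosen after their values were seen.

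Bckdha and Exosc5 are arranged head to head. Their promoter windows, printed above, lie on opposite strands and share 109 bases, and their starts are 392 bases apart. Both rose, by 0.53 and 0.87. Trappc6a and Bloc1s3 have the same arrangement, with starts 300 bases apart and 201 shared bases, and differences of -0.84 and -0.38, of which the first passed. Within groups, over 14 libraries, the values of Bckdha and Exosc5 had a correlation of 0.12, given as a description.

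Apart from housing, the members varied together little. After the group means were removed, the median correlation over 595 pairs of members was 0.05 (quartiles -0.14 and 0.26), against 0.00 over all pairs of genes tested (quartiles -0.21 and 0.21), each over 14 libraries that share their depth and scaling. Over the 28 pairs of risen members the median was 0.24, with a range from -0.33 to 0.81. Clptm1 and Rabac1 had a Pearson correlation of 0.64 and a Spearman correlation of 0.37 over the 14 libraries. Over the 12 without SPF 3 and SPF 7 the Pearson correlation was 0.38. SPF 3 and SPF 7 were left out because Clptm1 lay farthest from its median there. Leaving out the extremes of a gene tends to lower its correlations, so nothing is read from the drop.

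The mean deviation of the 8 risen members from their gene means lay between 0.18 and 0.51 on the log2 scale in GF libraries and between -0.73 and -0.17 in SPF libraries, a separation that follows from how they were picked. Over all 35 tested members it lay between 0.02 and 0.17 in GF libraries and between -0.31 and 0.08 in SPF libraries. SPF 1 was the only SPF library above any GF library. SPF 7 held the lowest value of its group for 5 of the 8 risen members and for 12 of all 35. Without SPF 7 Clptm1, Rabac1, Erf, Exosc5 and Capns1 were still called.

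The members are rich in GC, and across all genes the difference between groups went with GC content. The median member transcript had 58.0% GC, against 51.1% over all genes tested, and 26 of the 35 belonged to the quintile of genes with the highest GC content. In that quintile 7.74% of genes rose and 1.31% fell, with a median log2 difference of 0.15, and 66.3% lay above 0. In the lowest quintile 0.569% rose and 6.21% fell, with a median of -0.24, and 29.4% lay above 0. Of the 26 members in the highest quintile of GC content 6 rose (23.1%), with a median of 0.20, and 76.9% lay above 0. Calls also went with the number of counts behind a gene. Rises made up 12.9% of the quintile of genes with the highest values and 0.283% of the lowest. Of the 11 members in the highest quintile of values 4 rose (36.4%). The 8 risen members had a median mean of 182 normalized counts and a median SE of 0.14, and the 26 not called had 65.7 and 0.21.

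**Figure D4:**
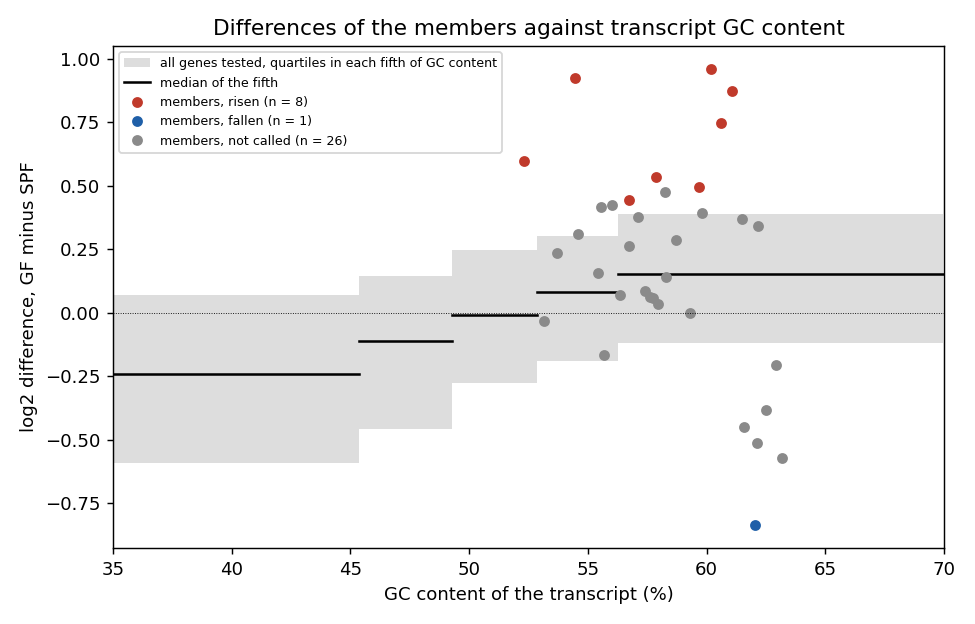
log2 difference, GF minus SPF, of the 35 tested members against the GC content of the transcript in percent. Black lines and grey bands give the median and quartiles of all genes tested in each quintile of GC content; the axis starts at 35%. The medians of the quintiles climb from -0.24 to 0.15, and the members sit in the upper part of the GC range.

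With trends of length and GC content removed from each library, 4 of the 35 members rose, or 11.4%, against 3.41% of all genes, and 2 fell, against 1.90% of all genes. Clptm1, Rabac1, Exosc5 and Erf were still called, at 0.92, 0.72, 0.63 and 0.41. Mark4, Snrpd2, Bckdha and Capns1 were not, at 0.65, 0.53, 0.41 and 0.29. Cic, at -0.49, passed beside Trappc6a, at -1.10. The length and GC content of Cic came from a transcript of 596 bases. That transcript may be a fragment, so the call of Cic here is uncertain. The median of the members was then 0.17, and that of all genes tested was 0.03.

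**Figure D5:**
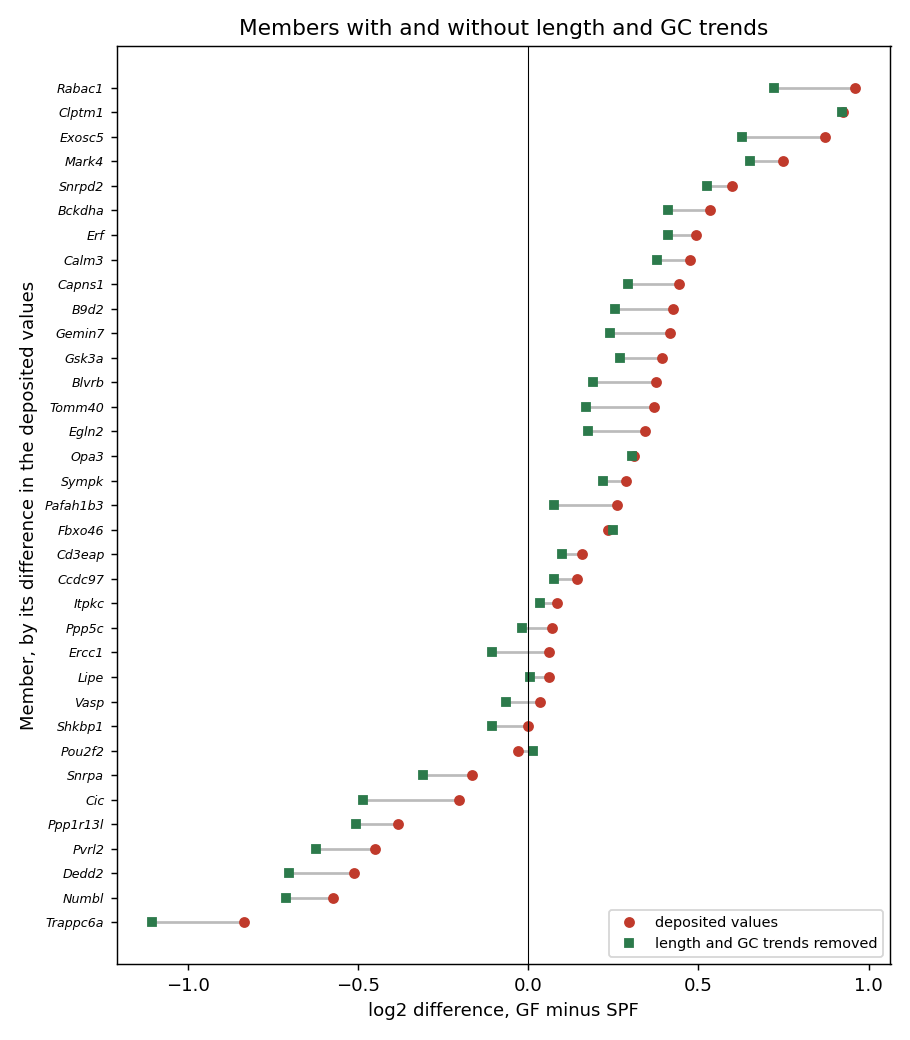
log2 difference, GF minus SPF, of each tested member in the deposited values (circles) and with length and GC trends removed (squares). Nearly all squares lie left of their circles, while Clptm1, at 0.92 in both, stays in place.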

How the data were processed

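The values the authors deposited are a signal that is never negative, in 1 row per RefSeq transcript and 1 column per library, called normalized counts here. The submitters' processing notes name TopHat and mm9. No source used here gives the counting tool, the scaling or whether strand was used. Between 84.5% and 86.7% of the positive values per library were a whole number of steps, within 0.01 of a step, which was too few to treat them as reads in a count test. Total divided by step, over the rows kept, gave the depth in read equivalents.

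The row with the highest mean was kept per symbol, which left 14217 genes of 18487 rows. Rows without a symbol, 217 in all, took that of their accession. Differences are GF minus SPF of log2(value + 1.44), which understates changes of low genes. A mean of 7.22 normalized counts or more was required, and 8822 genes were tested with limma 3.58.1 in R 4.3.3 (mean trend, two-sided, Benjamini-Hochberg over all genes, threshold 0.05). Rose and fell are used of genes past that threshold. The labels do not say that libraries came from separate animals, so p-values measure the spread between these libraries. The members, lists and tests were chosen with earlier results of these data known.

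Chromosome order came from the RefSeq table of GRCm38.p6, to which 18119 rows matched by accession and 248 more by symbol. GENCODE M21 gave transcript length and GC content for 14103 genes. The rule for names took all members, Apoe, Tgfb1 and up to 12 other block genes past the threshold, in order of adjusted p. Other genes are named as chromosome neighbours, chosen after their values were seen. On data simulated for this comparison, with 200 of 8822 genes changed, limma found 10.4% of 1.5-fold changes, 49.3% of 2-fold changes and 90.9% of 4-fold changes, and 3.85% of its calls were unchanged genes. The simulated errors were independent between genes and held no trend with GC content or depth, so these rates may not hold for the real libraries. Alternatives changed the pseudocount, filter, scaling, test, row choice, trends of length and GC content, replicate block and libraries kept.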

Additional observations from a re-analysis of the deposited data

Results flagged for a closer look

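Within each group of 7 libraries, the values of the 39 members and of 7 other block genes were checked for a single library far from the rest, on the log2 scale. Of 92 such groups 7 held one, where chance flags about 1 in 20 groups. Mark4 stood at 41.0 normalized counts in SPF 7, against 78.7 to 103 in the other SPF libraries. Pou2f2 stood at 456 in GF 2, against 629 to 741 in the other GF libraries. Rps19 stood at 273 in GF 1, against 204 to 230.1 in the others, and Rps16 at 239 in GF 4, against 312 to 362. The remaining 3 were low values: Dmpk was at 4.25 in SPF 3 and at 0 in the other SPF libraries, Numbl was at 1.18 in SPF 2 against 6.36 to 16.1, and Ppp1r13l was at 0 in SPF 5 against 5.19 to 16.6.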

How the results depend on the processing

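Clptm1, Rabac1 and Erf, with Apoe and Tgfb1, kept their calls under all 26 alternatives. The 8 rises among members were 5 with limma without a mean trend, 4 with length and GC trends removed and 3 without GF 1, GF 6 and SPF 2 together. Of all genes tested, 1.81%, 3.41% and 1.75% rose in these fits, against 3.68% in the main fit and 2.20% in the permutation test. The 1 fall was 0 with no filter on low values, with quantile normalization, in the exact permutation test per gene, with the replicate block and without the 3 libraries. It was 2 with trends removed, where the second was Cic, an uncertain call because its length came from a transcript of 596 bases. The median of the members moved to 0.17 with trends removed. Over all other settings that keep every library it lay between 0.23 and 0.31. The 7 rises among other block genes were 3 without a mean trend, 4 in the permutation test, 4 with trends removed and 2 without the 3 libraries, with 1 fall both with trends removed and without the 3 libraries. Of all genes, 596 changed, against 321 without a mean trend, 349 in the permutation test and 320 without the 3 libraries. Leaving out 1 library at a time gave 5 to 8 rises and 0 to 1 falls among members, 4 to 9 rises and 0 to 1 falls among other block genes, and 413 to 628 changed genes. Between 2.75% and 3.82% of all genes tested rose in those fits. The cause of the changes between settings was not tested. Replicate numbers did not pair libraries: deviations of same-numbered libraries had correlations between -0.06 and 0.05, and 0 of 7 GF libraries went best with their own number. The fit with the replicate block gave 6 rises among members and 6 among other block genes, where 3.24% of all genes tested rose. Low values limit Apoc1, Dmpk, Bcl3 and Grik5, which the filter left out: with no filter 7 members rose, Apoc1 among them, and Dmpk, Bcl3 and Grik5 did not pass. Of all genes tested with no filter, 1.83% rose.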
